A study of Mastomys natalensis with 4 samples.

Results

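The genes described here copy DNA, drive the cell cycle and separate the chromosomes. They were taken from a list of 49 gene names chosen for their role in division, of which 44 were carried as the single symbol of a probe set in the array's annotation, out of 8251 genes in all. Of these 44 genes 33 had at least 1 probe set bright enough to test. The tissue was the gastric mucosa of a rodent, Mastomys natalensis, used as a model of tumours of enterochromaffin-like (ECL) cells, the endocrine cells of the stomach that release histamine to stimulate acid. Total RNA was hybridised to Affymetrix mouse U74 arrays, 2 samples after 8 weeks of loxitidine (also written loxtidine), a stage labelled ECL cell hyperplasia, and 2 samples after 16 weeks, labelled ECL cell neoplasia. All 4 samples had received the drug, a blocker of the histamine receptor that drives acid secretion, so the comparison is between stages and not with untreated mucosa. Strain, age, sex, dose and any pooling of animals are not given in the labels used here, each sample carries a lot batch name of its own, and treatment time, lesion stage, age and lot cannot be told apart.

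Before a cell divides it loads the MCM helicase onto replication origins, opens them and copies both strands with primase, polymerases, a sliding clamp and a ligase that seals the lagging strand. Cyclin-dependent kinases, bound to cyclins and switched on by CDC25 phosphatases, start replication and later mitosis, and the spindle checkpoint holds chromosome separation until every chromosome is attached. In the gastric gland dividing cells sit mainly in the isthmus, between the surface mucous cells and the glandular cells below. In tissue RNA, fewer dividing cells and less of these transcripts per cell cannot be told apart.

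No replication or mitosis gene passed the test between the stages, and as a group these genes were shifted by about as much as all probe sets were. The differences given are log2 values, 16 weeks minus 8 weeks, with the standard error (SE) of the fit from n = 2 samples per group, on intensities set to a floor of 12.15 where they were lower. At 16 weeks 19 of the 33 tested members read higher and 14 lower, so 57.6% were higher beside 56.3% of all 7883 tested probe sets. This split moved with the scale of the arrays, to 13 higher and 19 lower on a common median and to 29 higher and 5 lower with the arrays aligned on hybridisation controls, where 41.9% and 84.9% of all probe sets were higher. Their median difference was 0.10 and that of all tested probe sets 0.09. In limma's test with Benjamini-Hochberg adjustment over all probe sets 0 members were called at 0.05, as were 0 of all probe sets (0%), and the smallest adjusted p of a member was 0.301. At an unadjusted p under 0.05 there were 2 members higher (6.06%, beside 8.08% of all probe sets) and 4 lower (12.1%, beside 5.87%). The 2 groups did not overlap for 10 members that were higher (30.3%, beside 28.7%) and for 6 that were lower (18.2%, beside 20.6%). Of these 4 shares 3 lay near those of the arrays as a whole, and the remaining one, 12.1% beside 5.87%, rests on 4 genes.

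**Figure D1:**
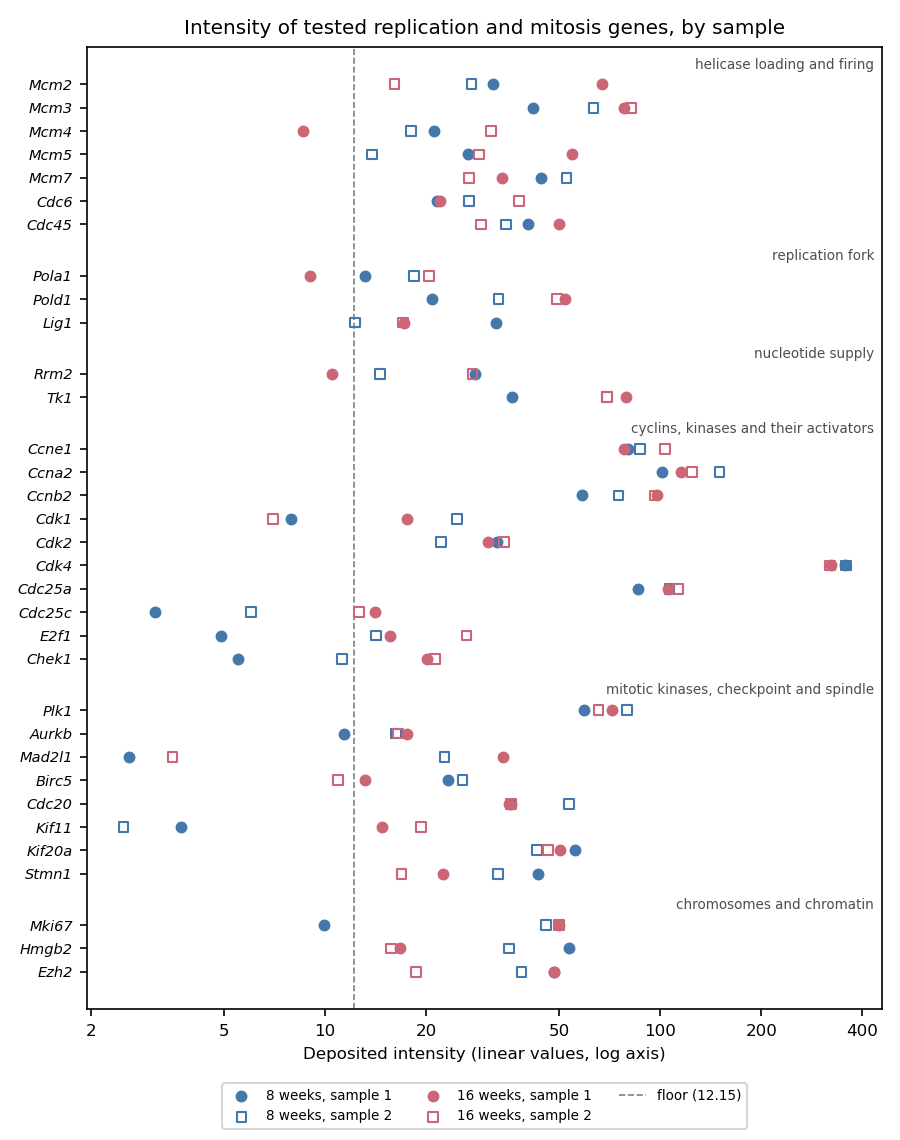
Deposited intensity on a log axis of the 33 tested members in each of the 4 samples, by role, with the floor as a dashed line; equal values, as for Tk1 at 69.3, hide each other. Hmgb2, Birc5, Stmn1 and Mcm7 were lower in both 16-week samples than in both 8-week samples, whereas Mcm2, Mad2l1, Cdk1 and Ezh2 differed widely between samples of 1 group.

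The 4 members that were lower with an unadjusted p under 0.05 were a chromatin gene, a helicase subunit and a pair from the mitotic group. Hmgb2, a high-mobility-group protein that bends DNA in chromatin and is abundant in dividing cells, had intensities of 53.5 and 35.3 in the 8-week samples and of 16.7 and 15.7 in the 16-week samples. This was the member with the smallest p, at -1.42 ± 0.30 or 2.68-fold (limma adjusted p = 0.301), with both 16-week samples below both 8-week samples. Birc5, which encodes survivin, the subunit that guides the chromosomal passenger complex to centromeres, read 23.3 and 25.7 against 13.1 and 10.9. Its difference was -0.96 ± 0.24 or 1.94-fold (limma adjusted p = 0.309), and the lower 16-week value lay under the floor. Stmn1, stathmin, which destabilises microtubules and is switched off when the spindle forms, read 43.2 and 32.7 against 22.5 and 16.9 (-0.95 ± 0.29, 1.93-fold, limma adjusted p = 0.326). A second Stmn1 probe set, above the floor on 1 array only and therefore not tested, read 6.1 and 6.7 against 15.6 and 10.9, the opposite order. Mcm7, a subunit of the MCM helicase, read 44.0 and 52.5 against 33.6 and 26.9 (-0.68 ± 0.26, 1.60-fold, limma adjusted p = 0.357). In all 4 genes, picked by their p, the samples of the 2 stages did not overlap on the probe set tested, which is no separate support. The differences stayed below 0 under quantile normalization, on a common median and with the arrays aligned on hybridisation controls. In the last of these Mcm7 was at -0.15 and Hmgb2 at -0.90.

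The 2 members that were higher with an unadjusted p under 0.05 were a polymerase and a checkpoint kinase. Pold1, the catalytic subunit of DNA polymerase delta, which copies the lagging strand, read 20.8 and 32.9 in the 8-week pair and 51.8 and 49.1 in the 16-week pair. Its difference was 0.95 ± 0.31 or 1.93-fold (limma adjusted p = 0.333). A second Pold1 probe set read 29.9 and 15.9 against 59.4 and 21.7 (0.72 ± 0.59), with the groups overlapping. Chek1, the kinase that halts the cycle when forks stall, read 5.5 and 11.2 against 20.1 and 21.3. Both 8-week samples lay under the floor, so the fold was at least 1.70 (limma adjusted p = 0.326). Pold1 stayed above 0 under the 3 other scalings of the arrays. Chek1 passed the filter on dim probe sets only through the 16-week samples, as did Kif11 and Cdc25c, and such a gene could only come out higher; 0 members passed only through the 8-week samples.

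**Figure D2:**
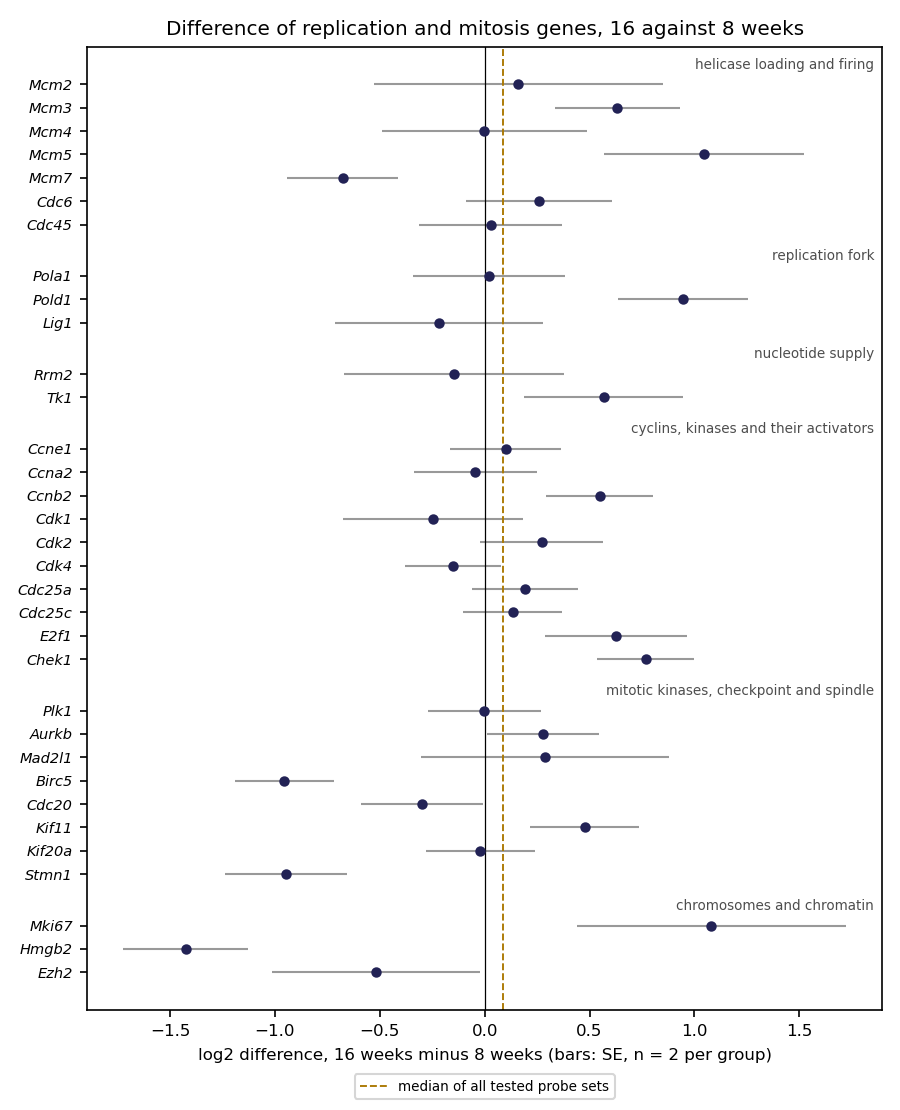
log2 difference of each tested member, 16 weeks minus 8 weeks, with bars of 1 SE from n = 2 samples per group, by role; the dashed line is the median of all tested probe sets (0.09). Hmgb2, Birc5 and Stmn1 lie farthest to the left at -1.42, -0.96 and -0.95, and Mki67, Mcm5 and Pold1 farthest to the right at 1.08, 1.05 and 0.95.

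The subunits of the MCM helicase lay on both sides of 0. Of the 7 tested genes that load or fire the helicase 5 were higher and 2 lower, and their median was 0.16 (quantile-normalised 0.01, on a common median -0.06). Mcm3 read 41.8 and 63.2 in the 8-week samples and 77.7 and 81.8 in the 16-week samples (0.63 ± 0.30), with no overlap. Mcm5 read 26.7 and 13.8 against 54.5 and 28.8 (1.05 ± 0.48), again with no overlap, but its other probe set read 13.2 and 35.6 against 18.5 and 22.6 (-0.08 ± 0.51). Mcm2 read 31.7 and 27.3 against 67.1 and 16.1, so that the 16-week samples held both its highest and its lowest value; the difference was 0.16 ± 0.69, and -0.06 on a common median. Mcm4 was likewise split, at 21.1 and 18.0 against 8.6 and 31.2 (0.00 ± 0.49, and 0.45 on the hybridisation controls), with the 16-week samples in the order opposite to that of Mcm2. Mcm7, described above, was the one subunit with both 16-week samples lower. Mcm6 stayed under the floor on all arrays, between 4.1 and 10.9. Cdc6, which loads the helicase, read 21.6 and 26.9 against 22 and 37.8 (0.26 ± 0.35). Cdc45, which activates it, read 40.3 and 34.7 against 49.8 and 29.2 (0.03 ± 0.34), with -0.09 after quantile normalization and -0.20 on a common median.

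Of 9 named fork genes 3 were tested. Besides Pold1 these were Pola1, the polymerase that extends the primer, at 13.1 and 18.4 against 9.0 and 20.4 (0.02 ± 0.36, and -0.17 and -0.16 after quantile normalization and on a common median), and Lig1, the ligase of the lagging strand, at 32.4 and 12.3 against 17.2 and 17.1 (-0.22 ± 0.50, and 0.20 on the hybridisation controls). The groups overlapped for both. The sliding clamp Pcna read between 3.4 and 5.6, the primase subunits Prim1 and Prim2 between 2.0 and 5.1, the clamp loader subunit Rfc1 between 2.9 and 6.6 on both its probe sets, and Rpa2 of the single-strand binding complex between 2.6 and 3.5. The flap nuclease Fen1 was above the floor on 1 array, at 13.1. The probes were designed on mouse sequence, so these values do not show that the transcripts were absent from Mastomys mucosa. Among enzymes that supply nucleotides, thymidine kinase Tk1 read 36.0 and 69.3 in the 8-week pair and 79.0 and 69.3 in the 16-week pair (0.57 ± 0.38), and its other probe set 20.9 and 8.1 against 29.6 and 18.7 (0.56 ± 0.40). Both gave the same size of difference with overlapping groups, and the 8-week samples came in opposite order on them. The ribonucleotide reductase subunit Rrm2 read 28.0 and 14.6 against 10.5 and 27.5 (-0.15 ± 0.53, and 0.31 on the hybridisation controls), while Rrm1 read at most 12.6 on its 2 probe sets and was not tested.

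Cyclins and their kinases included the brightest members. All 10 named genes of this group were tested, 7 higher and 3 lower, with a median of 0.16 that was -0.03 on a common median. Cdk4, the kinase of the D-type cyclins, read 355.6 and 357.8 in the 8-week pair against 322.5 and 320.2 in the other on its brightest probe set. The samples of each stage lay close together and the stages did not overlap, but the difference of -0.15 ± 0.23 was 1.11-fold, became 0.11 after quantile normalization and 0.38 on the hybridisation controls, and was 0.24 on a second, dim probe set. Ccnb2, a B-type cyclin of mitosis, read 58.5 and 75 against 97.6 and 96.1 (0.55 ± 0.26, 1.46-fold, unadjusted p = 0.0839 in limma), with both 16-week samples above both 8-week samples. The cyclin of S phase and G2, Ccna2, read 101.2 and 150.2 against 115.2 and 124.0, with the 16-week samples between the 8-week ones (-0.05 ± 0.29; 0.02 after quantile normalization and 0.48 on the hybridisation controls). Ccne1, which partners Cdk2 at the start of replication, read 80.2 and 86.8 against 77.7 and 103.0 (0.10 ± 0.27, and -0.12 on a common median). Cdk2 gave 0.27 ± 0.29 and, on a dimmer probe set, -0.03 ± 0.38.

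The remaining members of that group were dimmer or overlapped. The mitotic kinase Cdk1 read 7.9 and 24.7 in the earlier samples and 17.6 and 7.0 in the later ones (-0.24 ± 0.43), above the floor in 1 sample of each stage. Cdc25a, the phosphatase that activates Cdk2, read 85.6 and 106.5 against 105.4 and 112.8 (0.19 ± 0.25, and -0.03 on a common median). Cdc25a also had a probe set under the floor in all samples, at 2.1 and 2.6 against 7.3 and 7.1. Cdc25c, its mitotic counterpart, read 3.1 and 6.0 against 14.1 and 12.6, at least 1.10-fold higher, on a probe set shared with related transcripts. Its specific probe set stayed under the floor in all samples, at 3.2 and 9.2 against 5.3 and 8.5, with the groups overlapping. The transcription factor E2f1, which switches on replication genes, read 4.9 and 14.2 against 15.6 and 26.4 (0.63 ± 0.34) on a probe set marked as matching a gene family, and stayed between 2.6 and 4.5 on its own specific probe set.

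Among mitotic kinases, checkpoint and spindle genes 3 were higher and 5 lower of 8, with a median of -0.01 that was 0.51 on the hybridisation controls. Plk1, the kinase that drives entry into and passage through mitosis, was measured by 3 probe sets that did not give the same picture. The brightest read 59.1 and 79.6 against 71.7 and 65.4 (0.00 ± 0.27), the next 57.5 and 50 against 40.7 and 82.7 (0.11 ± 0.40), and the dimmest 23.9 and 25 against 13.0 and 9.2 (-0.96 ± 0.23, unadjusted p = 0.00876 and adjusted p = 0.309 in limma). Only the dimmest separated the stages, and both it and the next were marked as matching a gene family. Aurkb, the kinase of the passenger complex that Birc5 belongs to, read 11.4 and 16.3 against 17.6 and 16.5 (0.28 ± 0.27). Birc5 and Aurkb lay on opposite sides of 0, although Aurkb was at 0.06 after quantile normalization. Cdc20, the activator of the ligase that ends metaphase, read 35.9 and 53.3 against 35.4 and 35.8 (-0.30 ± 0.29, and 0.23 on the hybridisation controls), with 8-week sample 2 standing above 3 samples of nearly equal value.

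Motor proteins and the checkpoint gene Mad2l1 completed that group. The spindle motor Kif11 read 3.7 and 2.5 against 14.8 and 19.3, at least 1.39-fold higher. The cytokinesis motor Kif20a read 55.8 and 42.8 against 50.2 and 46.3 (-0.02 ± 0.26, and 0.51 on the hybridisation controls). This Kif20a probe set was marked as matching a gene family, and the other stayed under the floor in all samples, between 2.8 and 5.1. Mad2l1, which delays separation until chromosomes are attached, read 2.6 and 22.7 against 33.9 and 3.5 (0.29 ± 0.59). It was bright in 8-week sample 2 and 16-week sample 1 and under the floor in the other two, an arrangement shared with Cdk1. The kinase Aurka was above the floor in 16-week sample 2 alone, at 25.6 beside 1.9, 6.1 and 2.9. The checkpoint kinase Bub1 was above it in 16-week sample 1 alone and on 1 of its 3 probe sets, at 18.1, with 12.1 in the other 16-week sample and 4.9 and 7.5 at 8 weeks. Neither was tested.

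The chromosome and chromatin members pointed in both directions. Mki67, the gene of the Ki-67 antigen used to count dividing cells, read 9.9 and 45.7 in the 8-week pair and 49.8 in both 16-week samples, so that only 8-week sample 1 stood apart. The difference of 1.08 ± 0.64 was 0.12 without that sample and 2.04 without 8-week sample 2; a second Mki67 probe set stayed between 1.2 and 9.8. Ezh2, the methyltransferase of the Polycomb complex, read 48.1 and 38.5 against 48.2 and 18.7 (-0.52 ± 0.50, and 0.01 on the hybridisation controls), with 16-week sample 2 alone at the low end. Topoisomerase Top2a, which untangles replicated chromosomes, read between 2.0 and 4.8 and was not tested. With Hmgb2 the median of the 3 tested genes was -0.52, and 0.16 without 16-week sample 2.

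Samples of 1 stage also differed from each other. Over the 33 members the median absolute log2 ratio between the 8-week samples was 0.40 and between the 16-week samples 0.16, beside a median absolute difference of 0.28 between the stages. Over all tested genes the same values were 0.33, 0.32 and 0.35. By these medians the members lay closer together at 16 weeks and farther apart at 8 weeks than genes in general, which was not tested. The 7 helicase genes had the reverse order, with 0.255 at 8 weeks and 0.781 at 16 weeks. The 2 genes of nucleotide supply were at 0.684 at 16 weeks, and the other role groups at 0.133 or less. The floor narrows such ratios, and 21 of the 33 members were above it on all 4 arrays, beside 4409 of 5864 tested genes. In sample 2 over sample 1 the members' median was 0.14 at 8 weeks (0.14 over all tested probe sets) and -0.02 at 16 weeks (-0.05 over all). Of the 6 members with more than 1 tested probe set 4 had probe sets on both sides of 0 (Mcm5, Cdk2, Cdk4 and Plk1). In 9 members the tested value came from a probe set whose identifier marks probes shared with related transcripts or a reduced probe choice (Mcm3, Mcm5, Pold1, Cdc25c, E2f1, Plk1, Kif20a, Mki67 and Hmgb2).

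Dim probe sets as a whole lay higher at 16 weeks than bright ones, and the members leaned to the dim side. With all tested probe sets divided at the quartiles of brightness, the median difference was 0.19 in the dimmest group and -0.13 in the brightest. The 10 members of the dimmest group had a median of 0.21, with 7 higher. These 7 include Chek1, Kif11 and Cdc25c, which passed the filter only through the 16-week samples and could only come out higher. The 5 of the brightest group had a median of 0.10, with 3 higher. Over all probe sets 55.3% and 57.9% exceeded the floor in the 8-week samples and 62.4% and 62.3% in the 16-week samples. Of the 33 members 19 lay below the median brightness and 21 were above the floor on all 4 arrays. The 9 hybridisation control probe sets, which detect bacterial and phage RNA added before hybridisation, were lower by 0.53 (log2) at 16 weeks. After alignment on them the members' median was 0.53 and that of all probe sets 0.54. On a common median these were -0.14 and -0.11. Relative to all probe sets the members' median was therefore 0.01 on the deposited scale, -0.03 on a common median and -0.01 on the hybridisation controls. Without 16-week sample 1 the members' median was 0.23 and that of all probe sets 0.06, the widest gap of any setting tried. In all, 14 of the 33 members changed sign under at least 1 of the 3 other scalings. The other 19 did not, among them the 3 genes whose direction the filter fixed, of which Cdc25c was tested in only 1 of the scalings.

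**Figure D3:**
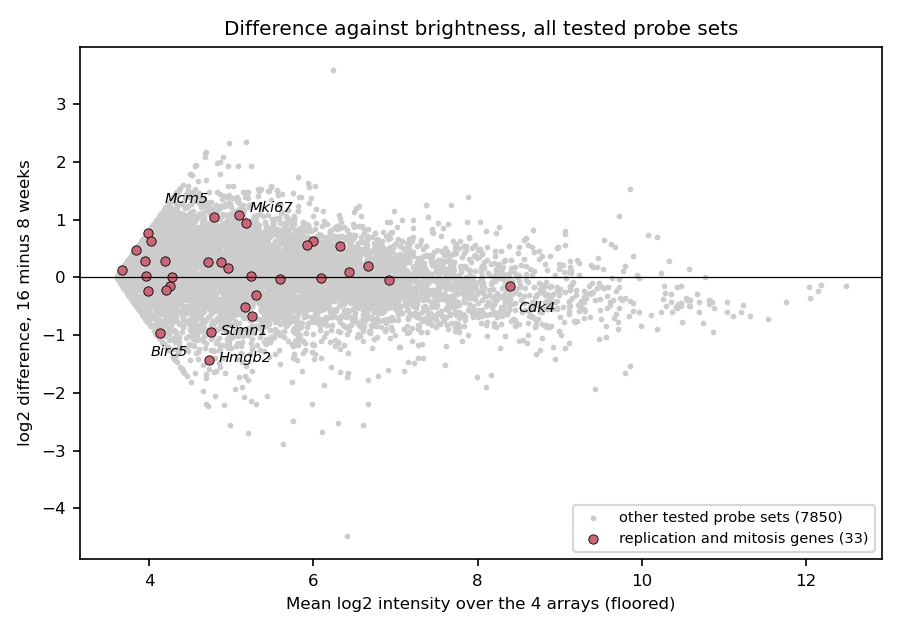
log2 difference, 16 weeks minus 8 weeks, against the mean log2 intensity over the 4 arrays for all tested probe sets (grey) and the 33 members (red). The members lie within the cloud of the other probe sets, more of them toward its dim end, with Cdk4 the brightest.

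**Figure D4:**
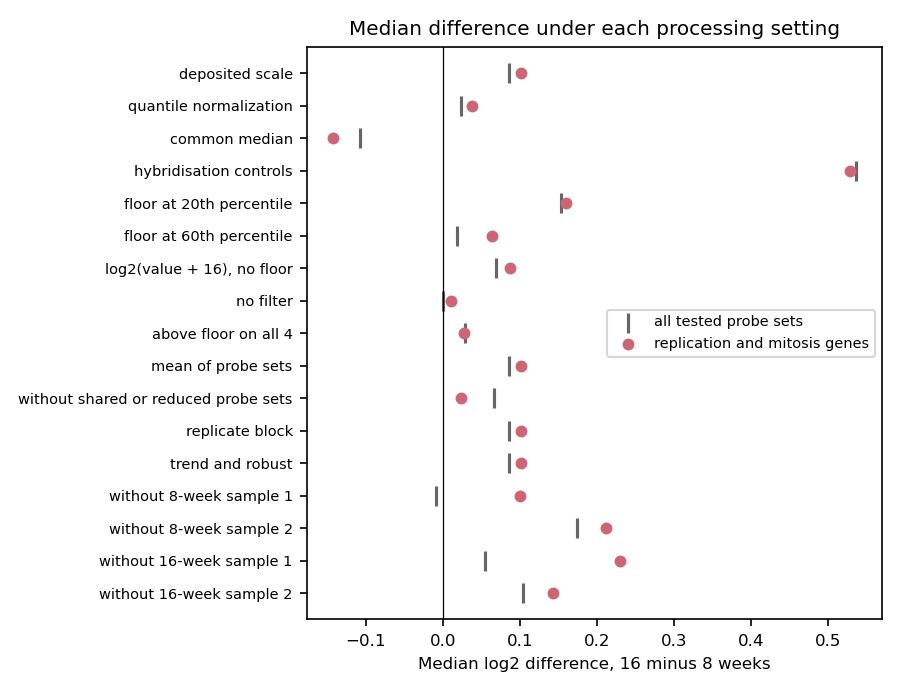
Median log2 difference, 16 weeks minus 8 weeks, of all tested probe sets (bars) and of the tested members (points) under each processing setting. The points lie within 0.05 of the bars except without 8-week sample 1 and without 16-week sample 1, and run from -0.14 on a common median to 0.53 on the hybridisation controls.

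Other genes of replication, cell cycle control and mitosis, from a list of 128, also lay on both sides of 0. Of 67 tested genes 32 were higher (47.8%, beside 57.6% of the members) and 35 lower, a difference between the lists that was not tested, with a median of -0.02 (-0.24 with 23 higher on a common median and 0.49 with 55 higher on the hybridisation controls), and 0 were called by limma (0% of all probe sets). At an unadjusted p under 0.05 there were 7 higher (10.4%, beside 8.08% of all probe sets) and 4 lower (5.97%, beside 5.87%). Securin, Pttg1, which restrains the enzyme that cuts sister chromatids apart, read 101.1 and 83.3 in the 8-week pair and 31.7 and 36.2 in the 16-week pair (-1.44 ± 0.25, 2.71-fold, limma adjusted p = 0.301). Cks2, a small subunit of cyclin-dependent kinases, read 93.7 and 83.3 against 42.6 and 26.6 (-1.39 ± 0.32, 2.62-fold, limma adjusted p = 0.309). Wee1, the kinase that holds Cdk1 inactive, read 26.1 and 18.4 against 6.7 and 5.0, at least 1.80-fold lower, and the small GTPase Ran, which guides spindle assembly, 963.3 and 891.8 against 605 and 527.5 (-0.71 ± 0.24). In each of these genes, named for their small p, both 16-week samples lay below both 8-week samples, which is no separate support.

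On the other side, Orc4 of the origin recognition complex read 8.9 and 11.3 against 23.3 and 28.4, at least 2.12-fold higher. Incenp, the scaffold of the passenger complex, read 23.8 and 25.6 against 38.0 and 48.0 (0.79 ± 0.25), opposite to Birc5 of the same complex. Aurkb at 0.28 ± 0.27 and Cdca8 at 0.35 ± 0.28 also lay above 0. They were at 0.06 and 0.22 after quantile normalization and at 0.10 and 0.13 on a common median. The nuclear lamina gene Lmnb1 read 10.7 and 23.4 against 35.9 and 36.6 (1.10 ± 0.38). Mybl2, a transcription factor of late cell cycle genes, read 32.5 and 39.0 against 65.1 and 55.4 (0.75 ± 0.25), but -0.94 on a second probe set. Orc4 and Wee1 had all samples of 1 stage under the floor, so the filter fixed their direction; the other 6 genes kept their sign under the 3 other scalings.

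Defining genes of parietal cells were bright in every sample, and several lists of marker genes lay apart between the stages, with 0 genes called. The proton pump subunit Atp4a read between 4034 and 5304 over the 4 samples and chromogranin A (Chga) between 141 and 299, whereas the histamine-forming enzyme Hdc stayed under the floor, between 4.9 and 7.8. Of 4 chief cell markers 0 were tested, because none was the single symbol of a probe set in the array's annotation, so their brightness is not known. The 6 tested T and NK cell markers were all higher at 16 weeks, with summed intensities of 184 to 217 at 8 weeks and 268 to 520 at 16 weeks. Most of the sum of 520, in 16-week sample 2, came from Zap70. This gene read 353.8 there beside 102.4 in 16-week sample 1 and 78.6 and 117.2 at 8 weeks, with the groups overlapping. Of 9 B and plasma cell markers 8 were higher (261 to 279 against 358 to 372), and 7 on a common median. Both 8-week samples lay under the floor for 1 of these T and NK cell genes and 3 of these B and plasma cell genes, which could therefore only come out higher. Of 8 ECL and neuroendocrine markers 6 were higher (492 to 584 against 646 to 719). This count was 5 after quantile normalization and on a common median, and 8 on the hybridisation controls. Of 8 smooth muscle markers 6 were lower (2910 to 3370 against 1730 to 1800), with a median of -0.76 that was -0.23 on the hybridisation controls. The 7 tested pancreatic acinar markers had summed intensities of 1260 to 3910 at 8 weeks and of 2510 to 6860 at 16 weeks. Squamous forestomach markers, of which 5 were higher and 2 lower, summed to 551 and 478 in the 8-week samples. At 16 weeks their sum was 309 in sample 1 and 1150 in sample 2. The 3' to 5' ratio of the actin control probe sets was 1.16 to 1.26 at 8 weeks and 1.46 to 1.63 at 16 weeks, whereas that of the Gapdh control probe sets overlapped, at 0.589 to 0.714 and 0.647 to 0.891. The part of these differences in the members' values was not tested. Intestinal-type markers summed to 1100 in 8-week sample 1 and to between 130 and 202 in the other samples. Without 8-week sample 1 the members' median difference was 0.10, as with it, while that of all probe sets was -0.01. Single members moved more, and 6 of the 33 changed sign, among them Lig1 from -0.22 to 0.48. Whether the intestinal-type content of that sample bears on the members' values was not tested.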

How the data were processed

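The table used holds the authors' deposited intensity of 12488 probe sets in each of 4 samples, on a linear scale. The sources used here do not say how it was computed or scaled. The arrays' 2% trimmed means lay within 4.76% of their common mean, so the deposited scale was kept. Values were set to a floor of 12.15 (the median over arrays of the 40th percentile) and log2 was taken. Tests covered the 7883 probe sets, controls left out, that exceeded the floor on 2 or more arrays, made with limma 3.58.1 (R 4.3.3; lmFit and eBayes, 2-sided, Benjamini-Hochberg over all of them, threshold 0.05). The smallest p of an exact permutation test in this design is 0.333. Separate animals are not stated, so the p-values cover only how these samples varied, possibly for technical reasons, and the number of arrays limits the precision. Arrays had medians between 15.4 and 19.2 and 55.3% to 62.4% of probe sets above the floor.

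Genes were named through GEO's annotation of the platform; Pole, Tyms, Ccnb1, Cdc25b and Bub1b had no probe set with a single symbol there. The brightest tested probe set stood for a gene. Every tested member was named; of the other pathway genes the 8 with the smallest p were named, and Cdca8 and those of the closing section were added after their values were seen, as were the marker genes named. Members and lists were chosen with earlier results of these data known. Scripts were tested on simulated data. No sequences are printed.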

Additional observations from a re-analysis of the deposited data

How the results depend on the processing

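Over 16 alternatives 0 of the members were called by limma, and the smallest adjusted p of a member ranged from 0.111 to 0.595; 22 probe sets, 0 of them members, were called with no filter on dim probe sets, 17 of them with both samples of a stage under the floor. Of 496 single-member values 46 changed sign, and 14 members kept theirs wherever tested. The replicate block, limma's trend and robust options and the other filters leave a probe set's difference as it was, so no sign could change there. Leaving out a sample cannot turn the sign of a member whose groups do not overlap. For 3 of the 14 (Chek1, Kif11 and Cdc25c) the filter fixed the direction, and the other 11 include Hmgb2, Birc5, Stmn1, Mcm7 and Pold1. Members at an unadjusted p under 0.05 numbered 1 to 10 higher, the most on the hybridisation controls, and 1 to 4 lower. The cause of these shifts was not tested. After quantile normalization the helicase median was 0.009, Cdc45 -0.086, Pola1 -0.17, Ccna2 0.02 and Cdk4 0.11. On a common median the member median was -0.14, helicase -0.063, cyclins and kinases -0.031, Mcm2 -0.063, Cdc45 -0.20, Pola1 -0.16, Ccne1 -0.12 and Cdc25a -0.031. On the hybridisation controls the medians were 0.53 for members, 0.69 for helicase, 0.37 for fork, 0.70 for nucleotide supply, 0.67 for cyclins and kinases and 0.51 for mitosis, with Mcm4 0.45, Lig1 0.20, Rrm2 0.31, Ccna2 0.48, Cdk4 0.38, Plk1 0.53, Cdc20 0.23, Kif20a 0.51 and Ezh2 0.009. With the floor at the 20th percentile nucleotide supply was 0.57 and Pola1 -0.20; at the 60th helicase was 0.39 and fork 0.77. Pola1 was -0.069 with log2(value + 16). With no filter the member median was 0.01. With all 4 arrays above the floor fork was 0.36 and nucleotide supply 0.57, on fewer genes. Cdk4 was 0.044 with the mean of probe sets, and without shared or reduced probe sets helicase was 0.013 and Mcm5 -0.084. With a sample left out, the lone sample being assumed to vary like the other group, the member median ranged from 0.10 to 0.23, helicase 0.052 to 0.59, fork -0.22 to 0.48, chromatin -1.20 to 0.16, Mcm2 -0.87 to 1.19, Mcm4 -0.68 to 0.68, Cdc6 -0.13 to 0.65, Cdc45 -0.36 to 0.41, Pola1 -0.35 to 0.39, Lig1 -0.92 to 0.48, Rrm2 -0.74 to 0.44, Ccne1 -0.10 to 0.30, Ccna2 -0.33 to 0.24, Cdk1 -0.76 to 0.27, Cdk2 -0.007 to 0.55, Plk1 -0.22 to 0.21, Mad2l1 -0.45 to 1.03, Kif20a -0.21 to 0.17 and Ezh2 -1.20 to 0.16. The labels number the samples 1 and 2 in both stages without giving the numbers a meaning, and same-numbered samples did not deviate together (correlation -0.05 over tested probe sets); with the replicate number as a block 0 members and 0 probe sets were called, and the member median was 0.10.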

Other observations

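Some genes of the other pathway list, picked here after their values were seen, read lower at 16 weeks without passing limma's test. The Ran partner Ranbp1 read 70.3 and 91.5 in the 8-week pair and 56 and 44.6 in the 16-week pair (-0.68 ± 0.28), topoisomerase Top1, which relaxes DNA ahead of the fork, 318.2 and 333.4 against 250.4 and 164 (-0.69 ± 0.30), and the tubulin gene Tubb5 413.7 and 385.7 against 304.2 and 250.8 (-0.53 ± 0.25; its other probe set gave -1.69). With the arrays aligned on the hybridisation controls these differences were -0.15, -0.16 and 0.00. Cks1b, the relative of Cks2, read 50.5 and 76.7 against 47.6 and 32.7 (-0.66 ± 0.34, and -0.13 on the hybridisation controls). Other genes of the same list lay the other way, among them the licensing factor Cdt1 at 36.5 and 15.5 against 53.9 and 45.7 (1.06 ± 0.46) and the centromeric histone Cenpa at 30.0 and 33.9 against 53.0 and 42.7 (0.58 ± 0.26).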
